A study of Mus musculus with 18 samples.

Results

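The 9 genes described here are *Ddit4*, *Ddit4l*, *Sesn1*, *Mxi1*, *Ankrd37*, *Ndrg1*, *Ndrg2*, *Ndrg3* and *Ndrg4*, chosen by name as antagonists of mTORC1 and MYC, together with the NDRG family and the hypoxia-responsive *Ankrd37*. All 9 were found among the 78239 genes of the count tables. They were measured by mRNA sequencing in the mouse retina and in 661W cells that expressed a normoxia-stable form of the hypoxia-inducible factor HIF1A (nsHIF1A) or enhanced green fluorescent protein (eGFP). The study compared *nsHif1a* with eGFP to ask how photoreceptors answer a hypoxia-like signal while oxygen is normal.

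The retinal groups were AAV::*nsHif1a* (n = 5 libraries) and AAV::eGFP (n = 5), from mice injected under the retina at postnatal day 29 to 32 and analysed 3 weeks post injection (wpi). Both vectors used the mOP rhodopsin promoter, which directs expression to rods, whereas whole retinas were sequenced and only part of the retina is reached by the virus. The labels give the strain as C57BL/6J and the study's methods give 129S6. The 661W groups were transfected for 20 h with a CMV plasmid that encoded Myc-tagged *nsHif1a* (n = 4) or eGFP (n = 4), and all groups were kept in normal oxygen. 661W is a mouse line derived from a retinal tumour and used as photoreceptor-like cells. The sources used here do not say that the numbered cell libraries came from separate cultures, so *p*-values for them measure the spread between these libraries, which may be technical.

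mTORC1 is the kinase complex that promotes protein synthesis and growth when nutrients, energy and oxygen suffice. DDIT4 (REDD1) and its relative DDIT4L (REDD2) restrain it through the TSC1-TSC2 complex, and the sestrins restrain it through the sensing of amino acids. MXI1 competes with MYC for their partner MAX and represses genes that MYC activates. HIF1A is known to raise the transcription of *DDIT4*, *MXI1*, *NDRG1* and *ANKRD37*. It binds to hypoxia response elements, whose core is ACGTG or GCGTG. Only ACGTG was searched here, and it is called the core below. The NDRG proteins are related to α/β-hydrolases but are thought to lack enzyme activity, and NDRG1 is known as a stress-induced inhibitor of growth and metastasis and as a myelin-related protein of Schwann cells.

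The promoters of 5 members are shown because these genes were called upregulated in the retina, in the cells or in both. They also differ in matches to ACGTG. Each window holds 250 bases before and 50 bases from the start of the canonical transcript in gencode M39, read from the genome GRCm39. Letters are 5′ to 3′ on the strand of the gene, and capitals mark ACGTG or its reverse complement CACGT.
Ddit4 promoter, chr10:59787613-59787912, minus strand: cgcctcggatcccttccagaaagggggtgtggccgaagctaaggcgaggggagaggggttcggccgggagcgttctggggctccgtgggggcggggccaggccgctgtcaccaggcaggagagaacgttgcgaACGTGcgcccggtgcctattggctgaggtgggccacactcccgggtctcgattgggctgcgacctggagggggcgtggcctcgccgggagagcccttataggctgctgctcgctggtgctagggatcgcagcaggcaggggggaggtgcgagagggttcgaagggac
Mxi1 promoter, chr19:53317594-53317893, plus strand: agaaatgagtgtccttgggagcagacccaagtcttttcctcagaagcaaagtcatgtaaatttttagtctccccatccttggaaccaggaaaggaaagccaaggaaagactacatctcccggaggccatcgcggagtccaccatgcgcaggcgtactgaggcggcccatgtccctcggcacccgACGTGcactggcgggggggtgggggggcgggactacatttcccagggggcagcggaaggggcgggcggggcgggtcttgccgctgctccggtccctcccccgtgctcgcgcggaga
Ankrd37 promoter, chr8:46452856-46453155, minus strand: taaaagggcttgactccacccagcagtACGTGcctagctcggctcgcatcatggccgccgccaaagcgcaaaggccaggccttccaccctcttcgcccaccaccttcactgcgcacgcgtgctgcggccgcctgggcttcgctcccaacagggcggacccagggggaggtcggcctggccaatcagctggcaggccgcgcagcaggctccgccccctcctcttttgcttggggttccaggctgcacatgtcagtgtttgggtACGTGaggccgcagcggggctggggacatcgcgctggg
Ndrg1 promoter, chr15:66841753-66842052, minus strand: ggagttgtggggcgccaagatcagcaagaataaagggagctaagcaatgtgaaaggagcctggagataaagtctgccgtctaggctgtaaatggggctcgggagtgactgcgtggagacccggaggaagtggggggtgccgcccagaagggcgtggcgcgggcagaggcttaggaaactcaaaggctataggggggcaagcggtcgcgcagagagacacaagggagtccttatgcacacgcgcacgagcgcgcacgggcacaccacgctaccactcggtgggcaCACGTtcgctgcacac
Ndrg2 promoter, chr14:52151149-52151448, minus strand: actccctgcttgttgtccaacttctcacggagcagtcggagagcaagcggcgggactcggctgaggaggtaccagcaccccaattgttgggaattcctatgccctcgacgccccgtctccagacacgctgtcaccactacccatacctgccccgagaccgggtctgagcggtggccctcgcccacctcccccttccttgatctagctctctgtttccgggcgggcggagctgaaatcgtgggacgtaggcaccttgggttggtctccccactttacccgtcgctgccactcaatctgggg

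With the start counted as 1, the core lay at -117 in *Ddit4*, at -66 in *Mxi1*, at -223 and 13 in *Ankrd37* and, on the opposite strand, at 35 in *Ndrg1*. None of these matches was part of the longer word CACGTG, the E-box to which MYC and MAX bind. No match to ACGTG was found in this window of *Ndrg2*, *Ndrg3*, *Ndrg4*, *Sesn1* or *Ddit4l*, and GCGTG was not searched. Of 21757 protein-coding promoters of the same length, 4506 (20.7%) held the core on either strand, so a match is a description of these letters and not a site. Over all annotated protein-coding starts, the core was found at 8 of 10 starts of *Mxi1*, 4 of 6 of *Ndrg1*, 1 of 3 of *Ddit4*, 5 of 25 of *Ndrg2*, 1 of 20 of *Ndrg4*, and at none of 11 starts of *Ndrg3* and 7 of *Sesn1*. The members lie apart in the genome. *Ddit4* (ENSMUSG00000020108.5) is at chr10:59785491-59788492 and *Mxi1* (ENSMUSG00000025025.15) at chr19:53298852-53364241. *Ankrd37* (ENSMUSG00000050914.17) is at chr8:46449939-46458744 and *Ndrg1* (ENSMUSG00000005125.14) at chr15:66801166-66841835. At most 1.78% of the 50-base words in the transcripts of any member also occurred in another gene, and this highest share was that of *Mxi1*.

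The depth was 12898220 to 17809585 counts per library, and 3 counts correspond to 0.168 to 0.233 CPM, a limit that covers counting error only. CPM is the level of a gene relative to the total counts of its library, scaled to a fixed total and corrected by the TMM method. Genes were tested with limma, *p*-values were adjusted by Benjamini-Hochberg over all genes, and a call needed an adjusted *p*-value under 0.05 together with a log2 fold change (log2FC) of more than 0.5 in either direction. *Hif1a* itself, which also counts reads of the transgene where they match, was at 150 to 164 CPM in eGFP cells and at 1222 to 1954 CPM in *nsHif1a* cells (log2FC 3.26, adjusted *p*-value 1.2e-05). In the retina it was at 638 to 698 CPM and 642 to 729 CPM (log2FC 0.05, adjusted *p*-value 0.504), so it did not check the labels there. The retinal libraries differed in other ways. The X inactivation transcript *Xist* was abundant (19492 to 28595 counts) in every AAV::*nsHif1a* library and in 2 of AAV::eGFP (1 and 2), but had 1 to 3 counts in AAV::eGFP libraries 3 to 5. The γ-crystallins, which are lens proteins, took 0.0634% to 0.280% of the counts in AAV::eGFP libraries, 0.0956% and 0.130% in AAV::*nsHif1a* libraries 5 and 2, and 1.06% to 1.82% in libraries 1, 3 and 4. The summed level of 11 rod markers was 51153 to 56771 CPM with AAV::eGFP and 40395 to 53233 CPM with AAV::*nsHif1a*, and all 11 markers were lower, 4 of them at an adjusted *p*-value under 0.05. In bulk retina, fewer cells of a type and less RNA per cell cannot be told apart. In 661W cells the same 11 rod markers summed to 13.4 to 18.5 CPM and 10 cone markers to 2.10 to 5.27 CPM, while the rod phosphodiesterase gene *Pde6a* alone was at 8.23 to 11.7 CPM with eGFP and 7.09 to 8.89 CPM with *nsHif1a*. None of the 11 rod markers was at 0 in all eGFP libraries, and 4 (*Nrl*, *Nr2e3*, *Rp1* and *Prph2*) had no counts in any *nsHif1a* library. Only 3 of the 11 passed the filter on low counts in cells, with log2FC from -0.28 to 0.38 and none called. The 4 genes at 0 were too low to be tested, so no difference can be read from them.

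In the retina, *Ddit4*, *Mxi1* and *Ankrd37* were upregulated 1.42-fold to 1.64-fold, and *Ndrg1* was 1.29-fold higher, which passed the adjusted *p*-value but not the fold change threshold. In 661W cells, *Ddit4*, *Mxi1*, *Ankrd37*, *Ndrg1* and *Ndrg2* were upregulated 1.60-fold to 2.36-fold. Thus 3 of 9 members tested in the retina and 5 of 8 tested in the cells were called upregulated, and none was called downregulated by limma, edgeR or DESeq2 (1 in the retina, *Ndrg3*, and 0 in cells were lower at an unadjusted *p*-value under 0.05 by limma). Among all genes, 1.08% of 18859 were called upregulated and 0.912% downregulated in the retina, and 1.21% and 0.0626% of 15962 in the cells. An unadjusted *p*-value under 0.05 by limma, in either direction, was reached by 4097 of 18859 genes in the retina and 3304 of 15962 in cells. The median log2FC of the members was 0.10 in the retina and 0.83 in the cells, and that of all genes tested was -0.0021 and -0.0013. The members were chosen with earlier results of these data known and include known HIF1A targets. Their comparison with all genes is therefore a description and not a test.

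**Figure D1:**
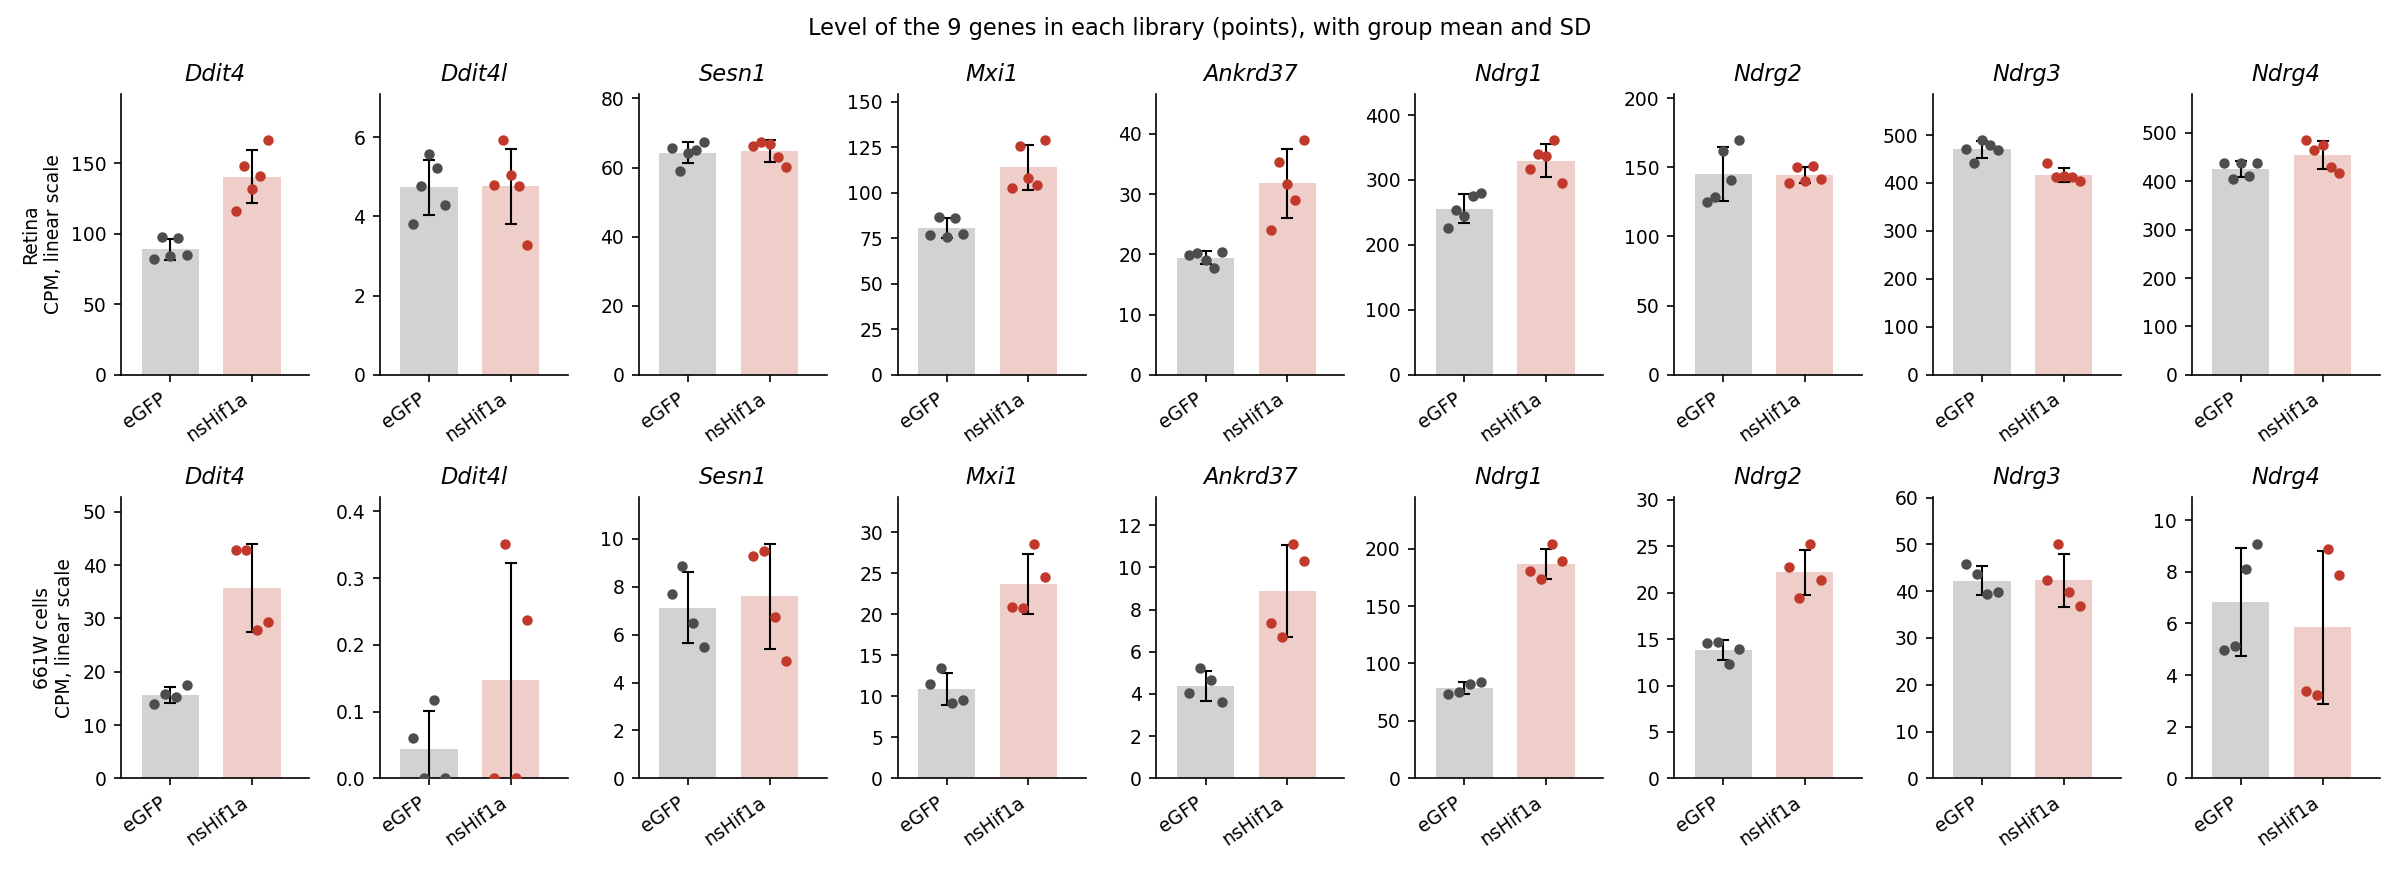
Level of each member in CPM on a linear axis from 0, in the retina (upper row) and in 661W cells (lower row); points are libraries, bars group means and whiskers SD (n = 5 or 4). The *nsHif1a* points lie above all eGFP points for *Ddit4*, *Mxi1*, *Ankrd37* and *Ndrg1* in both rows and for *Ndrg2* in the lower row.

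*Ddit4* was the most highly expressed of the 3 mTORC1 antagonists, both in CPM and per length. In the retina it was at 82.0, 97.7, 83.9, 96.7 and 84.8 CPM in the 5 AAV::eGFP libraries and at 115.8, 147.8, 131.4, 141.2 and 166.1 CPM in the 5 AAV::*nsHif1a* libraries. Every AAV::*nsHif1a* library was above every AAV::eGFP library, with library 1 lowest and library 5 highest, and 3.25% of all genes had groups apart with AAV::*nsHif1a* higher. The log2FC was 0.66 ± 0.08 (SE, n = 5 against 5), with 95% limits of 0.48 and 0.83 (adjusted *p*-value 0.0010, limma). In 661W cells *Ddit4* was at 14.0, 15.9, 15.3 and 17.5 CPM with eGFP and at 42.8, 42.9, 27.8 and 29.4 CPM with *nsHif1a*. The groups did not overlap, as for 7.51% of all genes in that direction there, and *nsHif1a* libraries 1 and 2 were above libraries 3 and 4. The log2FC was 1.18 ± 0.15 (SE, n = 4 against 4, adjusted *p*-value 0.0065, limma). It was 1.52 in replicates 1 and 2 alone and 0.82 in replicates 3 and 4 alone, both called. In these subsets 8.29% of 16122 and 1.15% of 16211 genes were called higher.

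The other antagonists of mTORC1 did not pass the test. *Sesn1*, a p53-induced sestrin, was at 59.1 to 67.3 CPM with AAV::eGFP and at 60.2 to 67.5 CPM with AAV::*nsHif1a* (log2FC 0.02, 95% limits -0.08 and 0.12). In 661W cells *Sesn1* was at 7.69, 8.88, 6.47 and 5.48 CPM with eGFP and at 9.28, 9.49, 6.73 and 4.92 CPM with *nsHif1a* (log2FC 0.07, 95% limits -0.43 and 0.58). In cells replicates 1 and 2 were above 3 and 4 in both groups. *Ddit4l*, the close relative of *Ddit4*, was at 3.82 to 5.57 CPM and 3.27 to 5.92 CPM in the retina (log2FC 0.08, 95% limits -0.27 and 0.42). In 661W cells *Ddit4l* had 0 to 2 counts in eGFP libraries and 0 to 5 in *nsHif1a* libraries and was removed by the filter on low counts, so a difference was not detectable at this depth.

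*Mxi1*, the MAX partner that opposes MYC, was at 76.8, 86.9, 75.5, 86.2 and 77.5 CPM in AAV::eGFP retinas and at 102.5, 126.0, 108.2, 104.3 and 128.9 CPM in AAV::*nsHif1a* retinas. The groups did not overlap, and libraries 1 and 5 were again the lowest and the highest. The log2FC was 0.51 ± 0.07 (SE, adjusted *p*-value 0.0018), so the call rested on a value just above the fold change threshold. Without any one of AAV::eGFP libraries 1, 3 and 5 or AAV::*nsHif1a* libraries 2 and 5 it was 0.45 to 0.50 and fell below that threshold, with adjusted *p*-values of 0.0035 to 0.0092. It was also below the threshold with upper quartile size factors (0.495), without quality weights (0.497) and with the *Xist* class as a covariate (0.48). In 661W cells *Mxi1* was at 11.5, 13.5, 9.23 and 9.53 CPM with eGFP and at 20.9, 20.8, 28.6 and 24.6 CPM with *nsHif1a*. Here replicates 3 and 4 had both the lower eGFP and the higher *nsHif1a* values, opposite to *Ddit4*. The log2FC was 1.11 ± 0.14 (SE, adjusted *p*-value 0.0061), with 0.75 in replicates 1 and 2 alone and 1.502 in replicates 3 and 4 alone.

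*Ankrd37* encodes a small protein with ankyrin repeats whose function is little known. In the retina it was at 19.9, 20.2, 19.1, 17.7 and 20.4 CPM with AAV::eGFP and at 24.1, 35.3, 31.6, 29.1 and 38.9 CPM with AAV::*nsHif1a*. Library 1 was once more the lowest and library 5 the highest, and the groups were apart. The log2FC was 0.71 ± 0.11 (SE, adjusted *p*-value 0.0027). In 661W cells *Ankrd37* was at 4.02, 5.25, 4.65 and 3.60 CPM with eGFP and at 7.37, 6.68, 11.1 and 10.3 CPM with *nsHif1a*. The log2FC was 0.98 ± 0.19 (SE, adjusted *p*-value 0.036), but a fit that blocked on the replicate number gave 1.06 with an adjusted *p*-value of 0.061, which ends the call. Without any one of the 4 eGFP libraries the call was also lost (adjusted *p*-values 0.053 to 0.078).

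**Figure D2:**
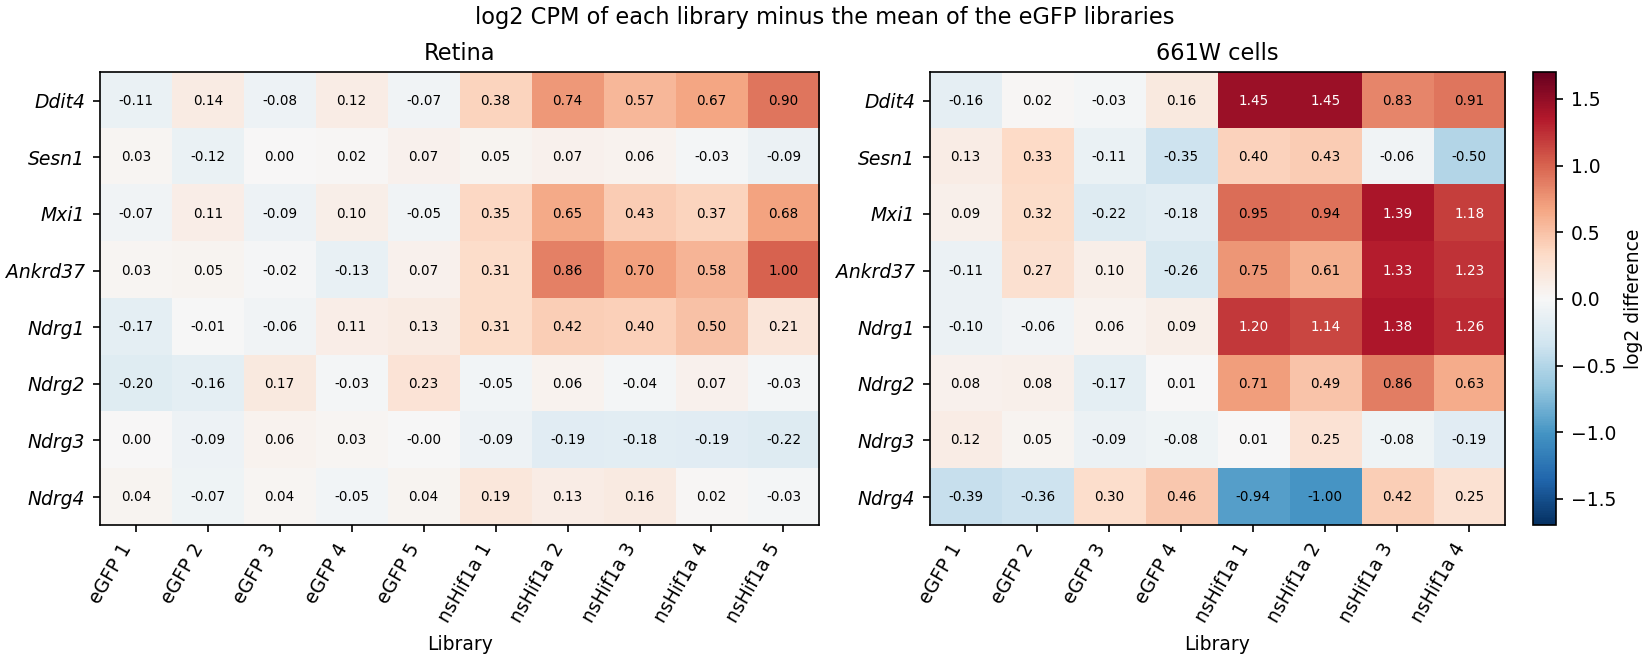
Difference of each library (columns) from the mean of the eGFP libraries of its experiment, in log2 CPM with a prior count of 2, for the members other than *Ddit4l* (rows); red is higher and blue lower. *Ddit4* was higher in *nsHif1a* cell libraries 1 and 2 than in 3 and 4, whereas *Mxi1* and *Ankrd37* were lower in 1 and 2.

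Without the 3 AAV::*nsHif1a* libraries that had over 1% of γ-crystallin counts, the retinal log2FC was 0.83 for *Ddit4*, 0.67 for *Mxi1* and 0.94 for *Ankrd37*, and all 3 were called. Among all genes, 220 of 20080 were called higher and 39 lower there. In the 7 libraries with *Xist* counts the log2FC was 0.67 for *Ankrd37* and 0.48 for *Mxi1*, and of the 3 genes only *Ddit4* was called (adjusted *p*-value 0.041 for *Ddit4*, 0.054 for *Mxi1* and 0.075 for *Ankrd37*). Calls among all genes were fewer too in this smaller subset, at 64 higher and 76 lower of 19926, against 203 and 172 of 18859 in the full fit. Markers of other cells were also measured beside these differences. The 10 cone markers summed to 1271 to 1472 CPM with AAV::eGFP and 1376 to 1644 CPM with AAV::*nsHif1a*, with 6 higher and 4 lower. Of the higher ones 1 was called, *Gnb3* (369 to 428 CPM and 477 to 648 CPM, groups apart). Of the lower ones 1 had an adjusted *p*-value under 0.05. All 7 endothelial markers were higher, 1 of them at an adjusted *p*-value under 0.05 and none called (summed level 232 to 289 CPM and 271 to 340 CPM). The 8 microglia markers were all higher with AAV::*nsHif1a*, none of them called (summed level 32.9 to 206 CPM with AAV::eGFP and 69.9 to 193 CPM with AAV::*nsHif1a*), and 11 lens markers summed to 1064 to 3911 CPM and 1167 to 21061 CPM, with *Lim2* at 0. The part of the rod markers and of these other cells in the differences was not tested.

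The NDRG family moved less evenly. *Ndrg1* was at 226, 254, 244, 275 and 280 CPM in AAV::eGFP retinas and at 316, 340, 337, 361 and 295 CPM in AAV::*nsHif1a* retinas. At an adjusted *p*-value under 0.05, 3.31% of all genes were higher. The groups were apart, but library 5, the highest for *Ddit4*, *Mxi1* and *Ankrd37*, was here the lowest of its group. The log2FC was 0.37 ± 0.06 (SE, adjusted *p*-value 0.0063), and 0.31 (adjusted *p*-value 0.149) without the libraries rich in γ-crystallin. In 661W cells *Ndrg1* was at 73.4, 75.3, 82.0 and 83.9 CPM with eGFP and at 181, 173, 204 and 189 CPM with *nsHif1a*. Its log2FC was 1.24 ± 0.06 (SE, adjusted *p*-value 3.4e-05), and it was 1.25 both in replicates 1 and 2 alone and in 3 and 4 alone.

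*Ndrg2*, known from astrocytes and as a suppressor of tumour growth, did not pass the test in the retina. It was at 125, 129, 162, 141 and 170 CPM with AAV::eGFP and at 139, 150, 140, 151 and 142 CPM with AAV::*nsHif1a* (log2FC -0.01, 95% limits -0.19 and 0.16). The AAV::eGFP libraries without *Xist* counts were the 3 highest of their group, and with the *Xist* class as a covariate the log2FC was 0.19 (adjusted *p*-value 0.189). The summed level of 10 Müller glia markers was 5350 to 5690 CPM with AAV::eGFP and 5049 to 5556 CPM with AAV::*nsHif1a*, and 10 markers of myelinating glia summed to 93.9 to 104 CPM and 88.4 to 112 CPM, with *Mobp* at 0. Of the Müller glia markers 7 were higher, 1 of them at an adjusted *p*-value under 0.05, and 3 were lower. In 661W cells *Ndrg2* was at 14.6, 14.7, 12.3 and 13.9 CPM with eGFP and at 22.7, 19.5, 25.3 and 21.4 CPM with *nsHif1a*. The groups were apart, and the log2FC was 0.67 ± 0.10 (SE, adjusted *p*-value 0.0095). 

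*Ndrg3*, whose protein is known to be stabilised when oxygen is low, was the only member lower in the retina at an adjusted *p*-value under 0.05, as were 2.47% of all genes. In the retina it was at 471, 442, 489, 480 and 469 CPM with AAV::eGFP and at 442, 413, 415, 413 and 405 CPM with AAV::*nsHif1a*. The lowest AAV::eGFP library (442.19 CPM) was only just above the highest AAV::*nsHif1a* library (442.15 CPM), and 2.69% of all genes had groups apart in this direction. The log2FC was -0.17 ± 0.04 (SE, adjusted *p*-value 0.015), which is within the fold change threshold, and 0.093 was the adjusted *p*-value without the libraries rich in γ-crystallin. In 661W cells *Ndrg3* was at 45.9, 43.6, 39.4 and 39.9 CPM with eGFP and at 42.4, 50.1, 39.9 and 36.9 CPM with *nsHif1a*, with overlapping groups (95% limits -0.21 and 0.21).

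*Ndrg4*, which is expressed mainly in brain and heart, was at 405 to 438 CPM in AAV::eGFP retinas and at 417 to 485 CPM in AAV::*nsHif1a* retinas (log2FC 0.10, adjusted *p*-value 0.201). In 661W cells it was at 4.98, 5.12, 8.12 and 9.08 CPM with eGFP and at 3.38, 3.23, 8.89 and 7.88 CPM with *nsHif1a*. Replicates 1 and 2 were lower than 3 and 4 in both groups, and the groups overlapped (log2FC -0.35, 95% limits -1.15 and 0.44). In replicates 1 and 2 alone *Ndrg4* was called lower (log2FC -0.61, adjusted *p*-value 0.027), as it was without *nsHif1a* library 3 (-0.90, 0.030) or 4 (-0.89, 0.034). Lower calls also rose among all genes in these fits. In replicates 1 and 2 alone 4.02% of 16122 genes were called lower, against 0.0626% of 15962 in the full fit. Without library 3, 677 of 16171 were called lower, and without library 4, 682 of 16166.

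**Figure D3:**
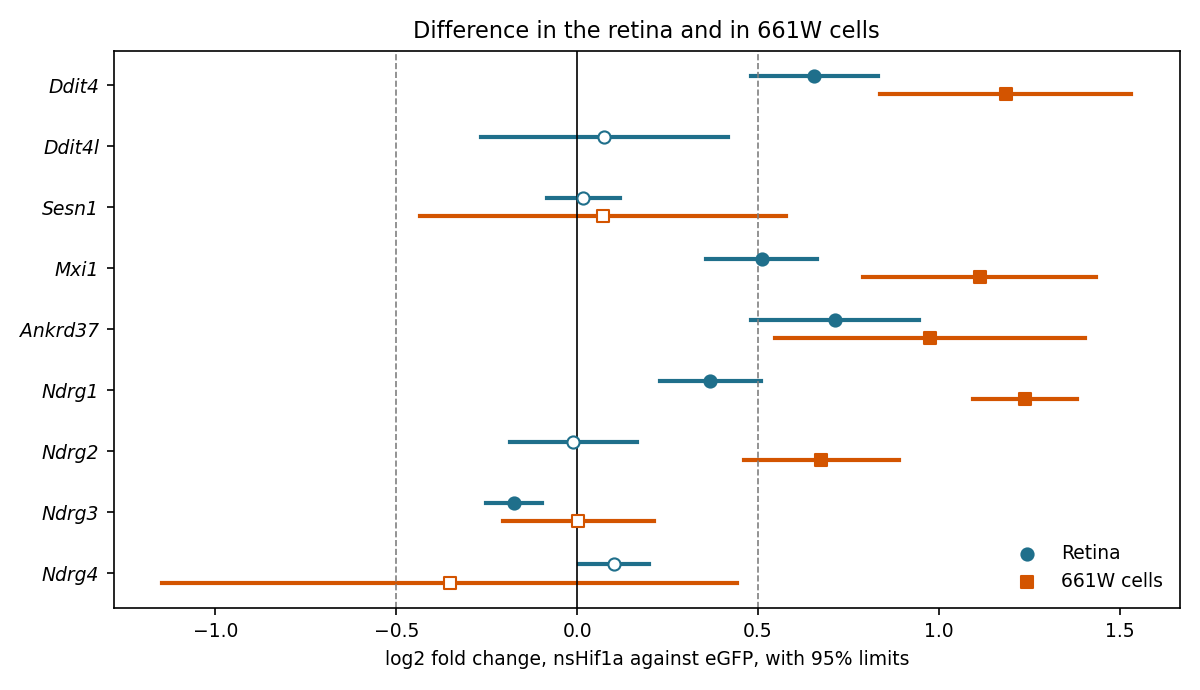
log2FC of *nsHif1a* against eGFP with 95% limits for each member in the retina (circles) and in 661W cells (squares); filled symbols have an adjusted *p*-value under 0.05 and dashed lines mark the fold change thresholds. *Ddit4l* was not tested in cells. *Ndrg1* was at 0.37 in the retina and 1.24 in cells.

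Whether the effect differed between retina and cells was tested with an interaction term over all 18 libraries, in which 2.33% of 20999 genes passed, 1.25% with the larger increase or smaller decrease in cells. Of the 9 members, *Ndrg1* and *Ndrg2* passed, both with the smaller effect in the retina. The retinal log2FC minus that in cells was -0.90 ± 0.10 (SE, adjusted *p*-value 8.5e-05) for *Ndrg1* and -0.70 ± 0.17 (SE, adjusted *p*-value 0.034) for *Ndrg2*. *Ndrg2* did not pass without AAV::eGFP library 4, AAV::*nsHif1a* library 3 or eGFP cell library 3 (adjusted *p*-values 0.054 to 0.059). For *Mxi1* the difference was -0.63 (95% limits -0.98 and -0.27, adjusted *p*-value 0.058), and it passed without any one of AAV::*nsHif1a* libraries 2 and 5, eGFP cell libraries 1 and 2 and *nsHif1a* cell libraries 1 and 2 (adjusted *p*-values 0.019 to 0.044). The difference was -0.46 for *Ddit4* (95% limits -0.83 and -0.09, adjusted *p*-value 0.186). *Ankrd37* had -0.33 with 95% limits of -0.84 and 0.19. Without *nsHif1a* cell library 3 or 4, 5 members passed, which were *Ddit4* and the 4 NDRG genes, with *Ndrg4* in the opposite direction to the others (0.98 and 0.97, retina minus cells). Many more of all genes passed there as well. Without library 3, 1641 of 21454 passed with a positive difference and 1456 with a negative one, and without library 4, 1664 and 1449 of 21452. The effect per cell and the share of cells that carried the transgene cannot be told apart in either experiment.

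The members were then ordered by level per length, as CPM per kilobase of annotated exons. In AAV::eGFP retinas *Ndrg4* (71.2 ± 2.7, SD) and *Ndrg1* (68.0 ± 5.9) led with overlapping ranges, followed by *Ndrg3* (57.3 ± 2.1). *Ddit4* (32.8 ± 2.8) and *Ndrg2* (27.9 ± 3.8) overlapped next, then *Sesn1* (15.01 ± 0.72), *Ankrd37* (13.7 ± 0.76) and *Mxi1* (11.9 ± 0.81), each overlapping its neighbour, and *Ddit4l* (1.60 ± 0.24) was last. In AAV::*nsHif1a* retinas *Ndrg1* (87.7 ± 6.7) came first and overlapped *Ndrg4* (75.9 ± 4.9), and *Ddit4* (51.7 ± 6.9) overlapped *Ndrg3* (50.9 ± 1.7). In eGFP cells *Ndrg1* (20.9 ± 1.3) stood apart from *Ddit4* (5.77 ± 0.54) and *Ndrg3* (5.14 ± 0.38), which overlapped. In *nsHif1a* cells *Ndrg1* (49.7 ± 3.5) and *Ddit4* (13.2 ± 3.0) were apart from each other and from all lower members. The order within the family depended on the length used. Per kilobase of the canonical transcript, *Ndrg3* (170 CPM per kilobase) was above *Ndrg4* (143), *Ndrg1* (79.8) and *Ndrg2* (57.9) in AAV::eGFP retinas.

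Within the NDRG family the share of *Ndrg1* in the summed level per exon length was 28.02% to 32.1% in AAV::eGFP retinas and 34.2% to 38.8% in AAV::*nsHif1a* retinas. In cells it was 67.9% to 71.9% with eGFP and 81.6% to 83.5% with *nsHif1a*. These ranges did not overlap, nor did they per canonical length (16.1% to 18.9% and 20.7% to 24.1% in the retina, 48.8% to 54.0% and 66.8% to 70.6% in cells). The share of *Ndrg3* went the other way, from 24.1% to 26.7% with AAV::eGFP to 20.3% to 21.9% with AAV::*nsHif1a*, and in cells from 15.5% to 19.4% with eGFP to 7.42% to 10.8% with *nsHif1a*. The level of *Ndrg3* itself had overlapping groups in cells, where *Ndrg1* and *Ndrg2* rose.

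**Figure D4:**
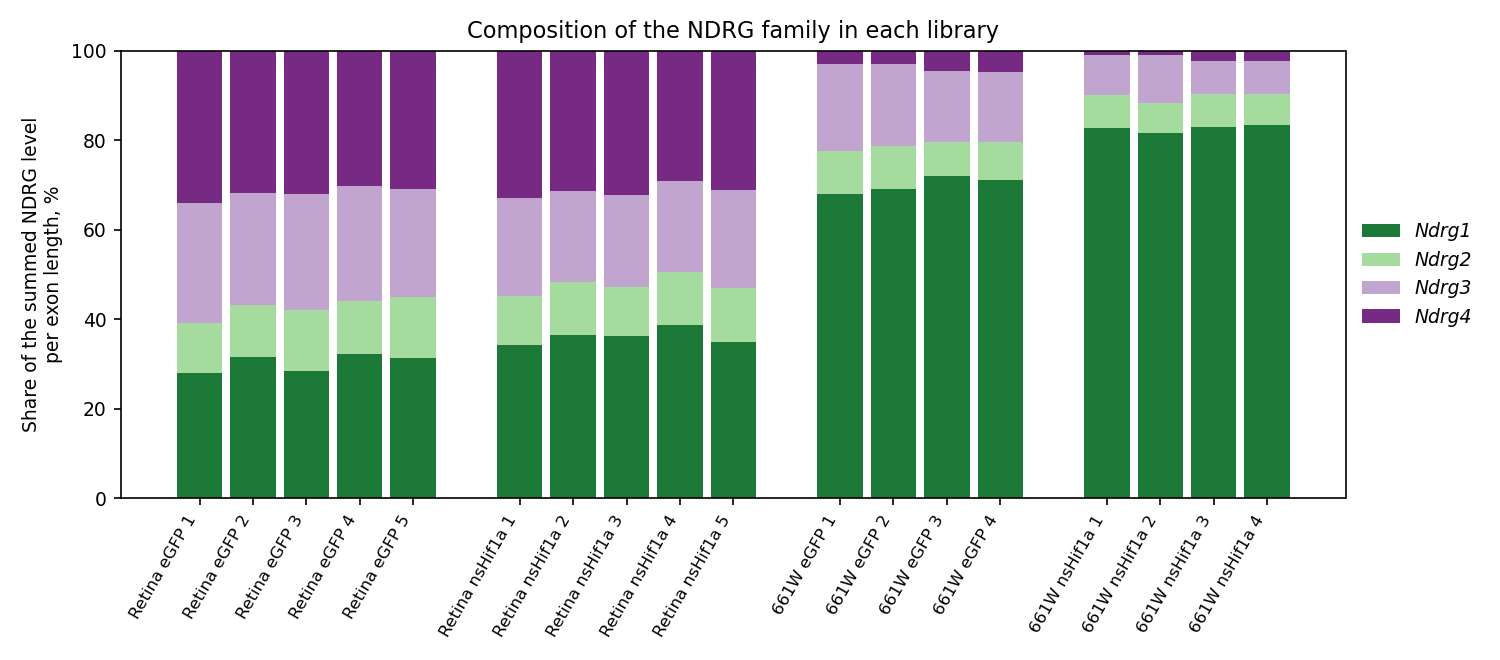
Share of each NDRG gene in the summed NDRG level per exon length, in percent, for every library. *Ndrg1* makes up 28.02% to 38.8% in the retina and 67.9% to 83.5% in 661W cells, where *Ndrg4* takes the smallest share.

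A like comparison was made for *Mxi1* among the MAX-binding repressors *Mxd1*, *Mxd3*, *Mxd4* and *Mnt*. Per exon length *Mxi1* took 22.6% to 25.4% of their summed level in AAV::eGFP retinas and 25.9% to 33.4% in AAV::*nsHif1a* retinas. In cells it took 5.57% to 7.79% with eGFP and 10.6% to 15.01% with *nsHif1a*. Per coding length the ranges overlapped in the retina (25.6% to 29.1% and 28.7% to 37.6%) and were apart in cells (7.84% to 11.3% and 15.05% to 20.01%). The repressors that share this role did not pass both thresholds in either experiment. *Mxd1* was nearest, at 13.7 to 16.5 CPM in eGFP cells and 17.8 to 20.99 CPM in *nsHif1a* cells (log2FC 0.39, adjusted *p*-value 0.046).

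Profiles were compared over all 18 libraries by the root mean square difference in log2 CPM, each library taken against the eGFP mean of its experiment, among 11455 protein-coding genes tested in both experiments. These values describe likeness, and the points share libraries and depth. For *Ddit4*, the nearest genes were *Bhlhe40* (0.21), *Fgf11* (0.22) and *Trib3* (0.23), while *Ndrg1* was 7th and *Mxi1* 11th. For *Mxi1* they were *Ankrd37* (0.19), the glycolytic enzyme gene *Pfkl* (0.20) and *Ndrg1* (0.21). For *Ankrd37* they were *Ero1a* (0.18), an oxidase of the endoplasmic reticulum, *Mxi1* (0.19) and the angiogenic factor *Vegfa* (0.21). *Ndrg1* was nearest to *Abhd18* (0.17), *Vldlr* (0.19) and *Bhlhe40* (0.20). *Ndrg2* was nearest to *Homer1*, *Nek1* and the enolase gene *Eno2* (0.14 each), and *Ddit4* was 9832nd in its order.

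Transcripts of the pathways around the members mostly did not pass the test. None of 10 genes of the mTORC1 complex and its inhibitors, among them *Mtor*, *Rptor* and *Tsc2*, was called in the retina or in cells by limma, edgeR or DESeq2. At an unadjusted *p*-value under 0.05, 2 were lower in the retina and 1 in cells by limma, and the median log2FC was -0.09 and -0.07. Such counts for this and the following lists stand beside 4097 of 18859 genes in the retina and 3304 of 15962 in cells (limma). *Mtor* was at 138 to 152 CPM with AAV::eGFP and at 119 to 139 CPM with AAV::*nsHif1a* (log2FC -0.13, adjusted *p*-value 0.124).

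Of the upstream sensors of mTORC1, none of 26 was called in the retina by any of the 3 tools (6 at an unadjusted *p*-value under 0.05 by limma), and 1 of 25 in cells. This was *Sesn2*, the stress-induced sestrin, at 38.5 to 53.2 CPM with eGFP and 70.4 to 82.3 CPM with *nsHif1a* (log2FC 0.74, adjusted *p*-value 0.014). In the retina *Sesn2* had a log2FC of 0.46 (adjusted *p*-value 0.029), and it was called without the libraries rich in γ-crystallin. With replicates as a block *Rragd*, a Rag GTPase that brings mTORC1 to the lysosome, was also called in cells (log2FC 0.76, adjusted *p*-value 0.204 without the block). Neither *Sesn2* nor *Rragd* was called when the counts of cell replicates 1 and 2, and of 3 and 4, were added, where none of 18117 genes was called (920 at an unadjusted *p*-value under 0.05, limma). *Sesn3*, the sestrin with the highest level in the retina, was at 209 to 254 CPM and 193 to 255 CPM there. Among 14 effectors of mTORC1, none was called in the retina by any of the 3 tools (5 at an unadjusted *p*-value under 0.05 by limma). In cells *Grb10*, an mTORC1 substrate that dampens insulin signalling, was upregulated (log2FC 0.51, adjusted *p*-value 0.010), a call lost with replicates as a block. The lysosomal genes that TFEB activates when mTORC1 is low were called neither in the retina (0 of 20) nor in cells (0 of 19) by any of the 3 tools, with 4 and 3 at an unadjusted *p*-value under 0.05 by limma.

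Of 13 genes of the MYC, MAX and MXD network tested in the retina and 12 in cells, none was called by any of the 3 tools (1 and 3 at an unadjusted *p*-value under 0.05 by limma). *Myc* was at 0.828 to 2.13 CPM in the retina and at 58.0 to 65.8 CPM in cells, where its log2FC was -0.02. *Max*, the common partner, had a log2FC of 0.19 in the retina (adjusted *p*-value 0.024). Of 30 MYC target genes, none was called in either experiment by any of the 3 tools. At an unadjusted *p*-value under 0.05 by limma were 10 in the retina (3 higher, 7 lower) and 12 in cells (1 higher, 11 lower). Among all genes this held for 4097 of 18859 in the retina and 3304 of 15962 in cells. In cells 26 of the 30 had a log2FC below 0 (median -0.12), 28 in replicates 1 and 2 alone (median -0.17) and 25 in replicates 3 and 4 alone (median -0.06). The medians of all genes tested were -0.0013, 0.0042 and -0.0027 in the same order. At an adjusted *p*-value under 0.05 in cells, 2 of the 30 were lower by limma, 1 by edgeR and 7 by DESeq2, and 1 was higher by each, all within the fold change threshold. In the retina 15 of 30 were below 0. The kinases that phosphorylate NDRG1 had no call among 4 tested in the retina and 5 in cells by any of the 3 tools (0 and 2 at an unadjusted *p*-value under 0.05 by limma), and *Sgk1*, the best known of them, was at 192 to 273 CPM and 241 to 268 CPM in the retina. Replicates 1 and 2 of the cells alone, where 8.29% of 16122 genes were called higher and 4.02% lower, held calls in these lists beyond *Sesn2* and *Grb10*, with *Rragd*, *Lpin1*, *Mycl* and *Ccnd2* higher and *Deptor*, *Odc1*, *Sgk1* and *Sgk2* lower. In replicates 3 and 4 alone, where 1.15% of 16211 genes were called higher and 0.265% lower, *Rragd* was the only gene called among the same lists. The calls of *Sesn2* and *Grb10* were lost there.

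**Figure D5:**
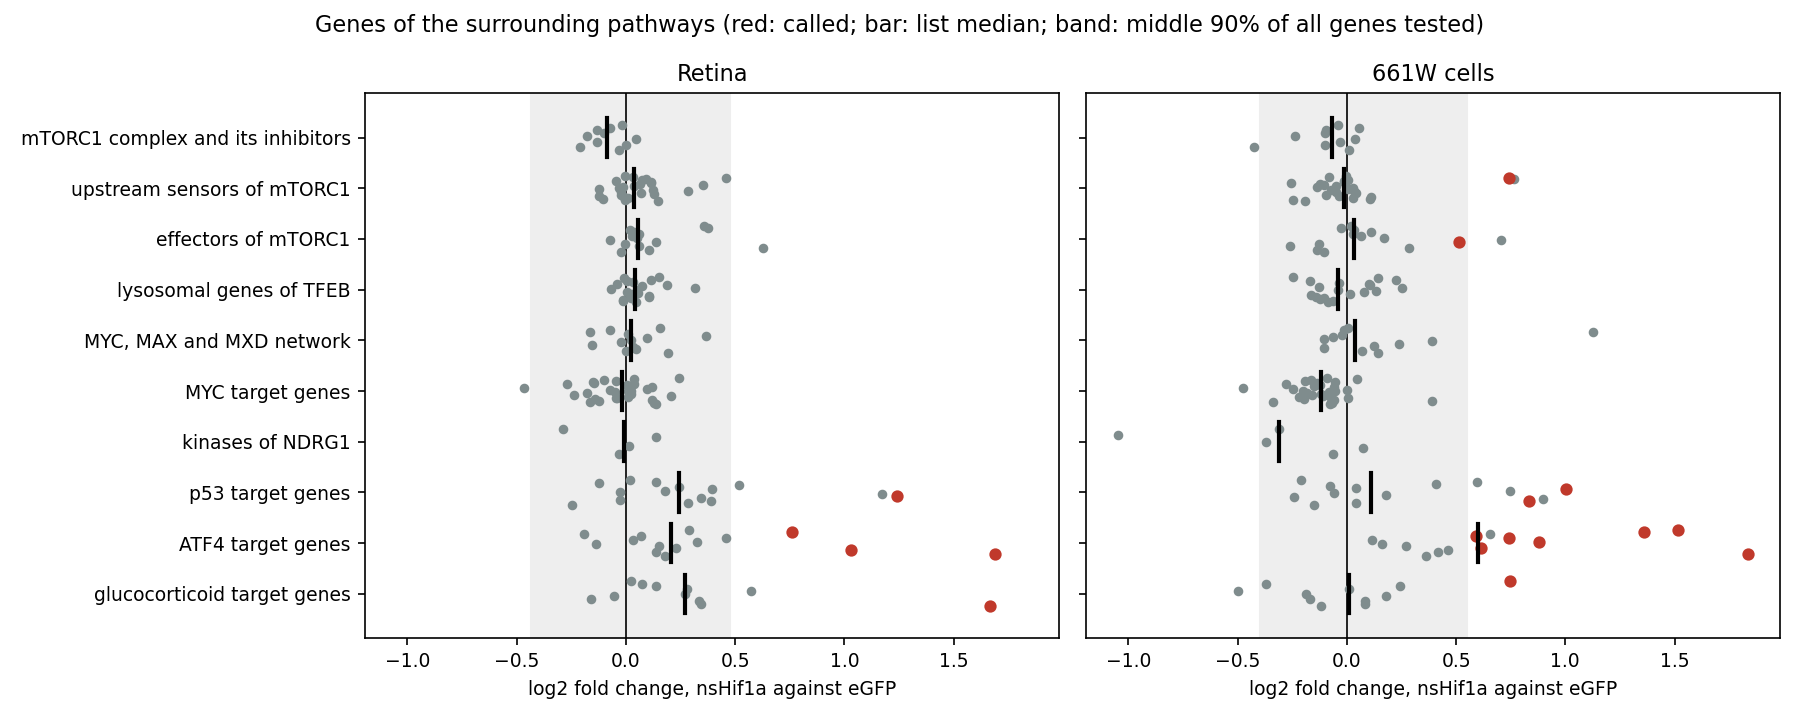
log2FC of every tested gene (points) of 10 lists in the retina and in 661W cells; red points were called, bars are list medians and the band spans the middle of the distribution of all genes tested. The ATF4 target genes had 7 red points of 14 in cells and 3 in the retina.

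Other regulators are known to act on these members, namely p53 on *Sesn1* and *Ddit4*, ATF4 on *Ddit4* and *Sesn2*, and glucocorticoids on *Ddit4*. The median log2FC of the p53 target genes was 0.24 in the retina and 0.11 in cells. For the glucocorticoid target genes it was 0.27 and 0.009. The ATF4 target genes had the most calls, with 7 of 14 upregulated in cells (median log2FC 0.60) and 3 of 14 in the retina (median 0.20). In cells these were *Ddit3*, *Trib3*, *Atf3*, *Ppp1r15a*, *Sesn2*, *Vldlr* and *Slc3a2*, with *Atf3* at 9.53 to 14.6 CPM with eGFP and 33.2 to 53.3 CPM with *nsHif1a* (log2FC 1.84). In replicates 1 and 2 alone 11 were called (median 0.83), where 8.29% of all genes were called higher, and in replicates 3 and 4 alone 4 (median 0.41), where 1.15% were. In the retina *Atf3* (log2FC 1.69), *Chac1* (1.03) and *Trib3* (0.76) were called, 1 of the 14 was called by edgeR and with replicates as a block, and none in the libraries with *Xist* counts (5 at an unadjusted *p*-value under 0.05). Of 19926 genes tested in the libraries with *Xist* counts, 64 were called higher, and 3150 were at an unadjusted *p*-value under 0.05 by limma.

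Of the p53 target genes, *Cdkn1a*, the cell cycle inhibitor p21, was called in the retina (1 of 15). *Fas*, a death receptor, was called beside it by edgeR and DESeq2. *Cdkn1a* was at 4.20 to 5.75 CPM with AAV::eGFP and 6.75 to 18.2 CPM with AAV::*nsHif1a* (log2FC 1.24, adjusted *p*-value 0.0083), and no p53 target gene was called in the libraries with *Xist* counts (6 at an unadjusted *p*-value under 0.05). Among all 19926 genes there, 64 were called higher, and 3150 were at an unadjusted *p*-value under 0.05 by limma. In cells *Gadd45a* (log2FC 1.003) and *Bbc3* (0.83) were called (2 of 14), 4 by DESeq2, which added *Trp53inp1* and *Btg2*, and none of the list with replicates as a block (10 at an unadjusted *p*-value under 0.05). With the block 105 of 15962 genes were called higher, and 3525 were at an unadjusted *p*-value under 0.05 by limma. Of the glucocorticoid target genes, 1 of 11 was called in each experiment. In the retina this was *Cebpd*, at 8.64 to 22.7 CPM and 20.4 to 76.3 CPM with overlapping groups. In the libraries with *Xist* counts *Cebpd* was not called and *Dusp1* was. In cells this was *Tsc22d3*, at 11.4 to 13.3 CPM and 18.01 to 24.6 CPM, a call lost with replicates as a block. Of the 11 glucocorticoid target genes tested in the retina, 9 were higher and 2 lower. An adjusted *p*-value under 0.05 was reached by 3 of the 9, as by 3.31% of all genes in that direction. In cells 6 were higher and 5 lower. *Fkbp5*, a receptor cochaperone widely used as a glucocorticoid readout, was among the lower ones. It had log2FC of -0.16 in the retina and -0.17 in cells and did not pass the test.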

How the data were processed

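Retinal mRNA (5 AAV::*nsHif1a* and 5 AAV::eGFP libraries) and mRNA of 661W cells (4 and 4) was analysed, with groups and replicate numbers taken from the sample labels. The authors made stranded paired-end libraries, mapped the reads to GRCm39 by Rsubread and obtained strand-specific counts per gene from featureCounts with gencode M36. The authors deposited these whole-number counts in 1 table per experiment, without normalization. Counting by strand separates antisense genes, while reads of near-identical copies may be lost or split.

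Starting from these counts, genes with too few reads were dropped by filterByExpr (minimum count 10), libraries were scaled by TMM in edgeR 4.0.16, and linear models were fitted to voomWithQualityWeights values with limma 3.58.1 (R 4.3.3), each experiment alone and all 18 libraries for the interaction. Log2 CPM used a prior count of 2. Lengths and starts came from gencode M39, which held 78168 of the 78239 genes. The procedure was also run on simulated counts. These were drawn independently for each library, so that run did not cover deviations that libraries share. The depth, 12898220 to 17809585 counts, limits what low genes such as *Ddit4l* can show.

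The members and gene lists were chosen with earlier results of these data known. Named genes were the members, every list gene called, up to 3 abundant uncalled genes per list, and the 3 nearest profiles of each called member. *Mxd1*, *Myc*, *Fkbp5*, *Lim2*, *Mobp*, *Gnb3*, *Pde6a*, the rod genes at 0 and the list genes called only by another tool, in subsets of libraries or with the block were named after their values were seen. In cells, libraries with the same number deviated together from their group means (r = 0.238, 0.227, 0.259 and 0.269 across genes). The main fit in cells had no block, and the replicate number was used as a block only as an alternative. No correlation was computed between libraries with different numbers. Pairing by number therefore cannot be told apart from a shared difference between replicates 1 and 2 and replicates 3 and 4. The alternatives tried were DESeq2 1.42.0 and the quasi-likelihood test of edgeR, voom without weights, other size factors, filters and thresholds, the replicate block, *Xist* and γ-crystallin covariates, subsets of libraries and the omission of each library. The subsets by γ-crystallin and by cell replicates 1 and 2 or 3 and 4 were chosen after the data were seen.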

Additional observations from a re-analysis of the deposited data

Results flagged for a closer look

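Among 36 groups of libraries examined, 1 held a library apart from the rest by Dixon's criterion, which chance meets in about 1 group of 20. AAV::*nsHif1a* library 1 had the highest *Ndrg3* level of its group, at 442.15 CPM, just under the lowest AAV::eGFP library.

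The effect of *nsHif1a* differed between the retina and 661W cells for *Ndrg1*, by -0.90 (retina minus cells, log2), and for *Ndrg2*, by -0.70. *Ndrg1* was higher than every eGFP library in 5 of 5 retinal and 4 of 4 cell libraries, and *Ndrg2* in 0 of 5 and 4 of 4.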

How the results depend on the processing

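Direction and call of *Ddit4* in the retina held under every alternative but the log2FC threshold of 1. The number of members called in the retina, 3, was 5 with no fold change threshold, 0 with a log2FC threshold of 1 (6 at an unadjusted *p*-value under 0.05, limma) 1 in the libraries with *Xist* counts, 2 with upper quartile size factors, without quality weights and with the *Xist* class as a covariate (*Mxi1* lost each time), and 2 or 3 when libraries were left out. In cells, 5 became 3 with a log2FC threshold of 1 and 0 when replicate 1 was added to 2 and 3 to 4 (2 against 2 sums, limma, 5 at an unadjusted *p*-value under 0.05), and 4 to 6 when libraries were left out. The interaction called 2 members, 1 without a filter on low counts and 1 to 5 when libraries were left out. The retinal numbers did not pair the libraries (r = -0.109 to 0.138 across genes). A replicate block there left 3 members called and took *Ndrg3* to an adjusted *p*-value of 0.074. In cells the block changed no call of a member but that of *Ankrd37*, and 2 members passed in the blocked interaction. All reversals concerned members that were not called. In the retina, *Ddit4l* became -0.021 without quality weights and -0.073 without the γ-crystallin-rich libraries (-0.028 to 0.16 with libraries left out), and *Sesn1* -0.014 without the γ-crystallin-rich libraries (-0.0087 to 0.042). *Ndrg2* became 0.0025 without weights, 0.19 with the *Xist* class and in the libraries with *Xist* counts, 0.053 with the γ-crystallin covariate and 0.0078 without the libraries rich in it (-0.081 to 0.092). In cells, *Sesn1* became -0.061 in replicates 3 and 4 alone (-0.29 to 0.38), and *Ndrg4* ranged from -0.90 to 0.28. *Ndrg3* became -0.0097 without weights, -0.0081 without a filter, -0.0046 with the replicate block, -0.0032 with the replicate sets as a covariate, -0.043 in replicates 3 and 4 alone and -0.012 with added counts (-0.14 to 0.12). In the interaction, *Sesn1* became -0.068 with edgeR, -0.035 without weights and -0.064 with the block (-0.34 to 0.31), and *Ndrg4* ranged from -0.18 to 0.98. The cause was not tested. Among all genes, the 203 higher and 172 lower calls in the retina became 141 and 59 with the block, and the 193 and 10 in cells 105 and 2, or 332 and 34 with DESeq2.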
